A study of Mus musculus with 6 samples.

Results

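The clustered histone genes are the multicopy genes that supply histone proteins during DNA replication. They were taken as every gene of the deposited table whose symbol begins with Hist1h, Hist2h, Hist3h or Hist4h, which gave 63 of 16403 genes. Of these, 6 encode the linker histone H1, 17 encode H2A, 17 encode H2B, 11 encode H3 and 12 encode H4. The large Hist1 cluster on chromosome 13 held 51 of them, the Hist2 cluster on chromosome 3 held 9, the Hist3 cluster on chromosome 11 held 2 and Hist4, on chromosome 6, held 1. Their mRNA was measured by bulk RNA sequencing of LSK cells, the lineage-negative, Sca-1-positive and Kit-positive fraction of mouse bone marrow that contains hematopoietic stem cells and early progenitors. The cells came from C57BL/6 mice with ligature-induced periodontitis (LIP), a gum inflammation caused by a thread tied around a tooth and here left for 7 days, and from C57BL/6 mice with no ligature (NL). Each group had 3 libraries, and each library pooled cells sorted from 3 mice, so the spread between libraries is a spread between pools. The labels named no genetic change in either group and gave no separate values for single mice.

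Replication-dependent histone genes are transcribed in S phase, when new chromatin is packed onto newly made DNA. H2A, H2B, H3 and H4 form the core of the nucleosome, and H1 binds the DNA between nucleosomes. Unlike other mRNAs, most of their mRNAs end after a conserved stem-loop and not in a poly(A) tail. The stem-loop is bound by SLBP and the end is cut with the help of the U7 snRNP. Some clustered histone genes can also give longer, polyadenylated transcripts, for example in cells that have left the cell cycle. The libraries were selected for polyA RNA, per the labels' protocols, so only part of these mRNAs could be captured and the values below are not the total amount of histone mRNA.

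The stem-loop at the 3′ end is the feature that sets these mRNAs apart under polyA selection, and it is shown for a member of each class. The sequences were read from GENCODE M21 transcripts (GRCm38), run 5′ to 3′ on the gene's strand, and have the 16 bases of the stem-loop in capitals, with up to 5 bases before and 9 after it. They include 5 of the 6 genes that passed the test below. The H1 gene Hist1h1c is at chr13:23739512-23739527 (+), Hist1h2ao at chr13:21810898-21810913 (+), Hist1h2ap at chr13:21833029-21833044 (-), Hist1h2bg at chr13:23571843-23571858 (+), Hist1h3g at chr13:23535889-23535904 (+) and Hist1h4i at chr13:22040966-22040981 (-).
Hist1h1c: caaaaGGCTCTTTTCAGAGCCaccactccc
Hist1h2ao: aaaaaGGCTCTTTTCAGAGCCatccacagt
Hist1h2ap: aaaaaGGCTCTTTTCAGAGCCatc
Hist1h2bg: ccaaaGGCTCTTTTCAGAGCCacccatact
Hist1h3g: ttaaaGGCTCTTCTTAGAGCCacccatctt
Hist1h4i: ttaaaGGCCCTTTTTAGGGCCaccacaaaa

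A stem-loop of this form (GG, any 3 bases, T, any 4 bases, A, any 3 bases and CC on the transcript strand, with arms able to pair) was found in an annotated transcript of 44 of the 63 genes, or 69.8%. The same search, made only in the longest transcript of each gene, matched 5.51% of 16004 other genes of the table. The first 5 bases of the loop's stem differed between classes. All 33 matches in H1, H2A, H2B and H3 genes began with GGCTC, whereas 9 of the 11 matches in H4 genes began with GGCCC and the other 2 with GGTCC. Of the 19 genes without a match, 9 had annotated transcripts that run only from start codon to stop codon, so these letters lie outside their models. The called H2B gene Hist1h2bc and the H2B gene Hist2h2be had longer transcripts without a match.

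The annotated 3′ ends also differed. Of the 44 genes with a stem-loop, 21 had a transcript ending within 60 bases of it and 22 had one running over 100 bases past it. The transcript went on for 3 bases after the stem-loop in Hist1h2ap, 31 in Hist1h2ao, 47 in Hist1h3g, 155 in Hist1h2bg, 330 in Hist1h4i and 840 in Hist1h1c. The poly(A) signal AATAAA was found within the last 40 bases of the longest transcript in 17.5% of the clustered histone genes, against 57.7% of the other genes. Hist1h1c, Hist3h2a and Hist2h2be were among those that had it.

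The promoters are shown for 2 of the called genes, each from a divergent pair of an H2A and an H2B gene with overlapping promoter windows. The 2 genes are not from the same pair, as Hist1h2bg faces Hist1h2ae and Hist1h2ap faces Hist1h2br. The windows are RefSeq's (GRCm38.p6), 250 bases before to 50 after the annotated start, and read 5′ to 3′ on the gene's strand. Capitals mark the octamer ATTTGCAT, the box CCAAT and the box TATAAA, each searched on both strands. Hist1h2bg lies at chr13:23571150-23571449 (+) and Hist1h2ap at chr13:21833426-21833725 (-).
Hist1h2bg: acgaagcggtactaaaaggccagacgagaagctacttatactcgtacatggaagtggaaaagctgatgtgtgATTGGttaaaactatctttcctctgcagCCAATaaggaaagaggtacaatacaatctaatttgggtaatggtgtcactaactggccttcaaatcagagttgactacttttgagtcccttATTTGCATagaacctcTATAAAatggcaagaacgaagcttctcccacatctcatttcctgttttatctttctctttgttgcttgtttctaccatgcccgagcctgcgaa
Hist1h2ap: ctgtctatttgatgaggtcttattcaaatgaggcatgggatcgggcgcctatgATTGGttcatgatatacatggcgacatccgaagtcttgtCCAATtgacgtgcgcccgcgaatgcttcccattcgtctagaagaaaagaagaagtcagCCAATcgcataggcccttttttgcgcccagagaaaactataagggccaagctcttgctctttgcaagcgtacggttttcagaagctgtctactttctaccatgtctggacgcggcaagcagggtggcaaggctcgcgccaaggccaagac

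Promoter windows were found for 58 of the 63 genes. The octamer, which the factor encoded by Pou2f1 is known to bind in H2B promoters, was present in 20.7% of them and in 1.74% of all 32851 windows. It occurred in 6 of 17 H2A windows and 6 of 15 H2B windows, and in none of the windows of H1, H3 and H4 genes. CCAAT was found in 86.2% of the windows, against 37.4% of all windows, and in 3 of 11 H4 windows. TATAAA was found in 55.2%, against 13.6% of all windows. In the Hist1h2bg window the octamer began 59 bases before the annotated start and TATAAA began 43 bases before it. Hist1h2ao and Hist1h2ap shared a run of 200 identical bases within their windows. A match is a run of letters and says nothing of whether a factor is bound there.

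Library totals lay between 17780853 and 18841103 estimated counts. Libraries of the same group differed by more than sampling noise, so none was counted as a repeat of another. A filter on low counts left 44 of the 63 histone genes, and 12564 genes in all, for the test, which was edgeR's quasi-likelihood test with Benjamini-Hochberg adjustment over all tested genes. An adjusted p below 0.05 was a call. CPM are counts scaled to the library total and its TMM factor. They are not corrected for length, and are given as mean ± SD over n = 3 libraries per group. A library count of 3 stood for 0.157 to 0.171 CPM. Fold changes are log2 of LIP over NL, with the standard error (SE) of the fit.

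In all, 6 clustered histone genes had lower mRNA levels in LIP than in NL LSK cells and none had higher levels. The 6 were 13.6% of the 44 tested, and 15.8% of all tested genes were called lower, so the share of calls among the histone genes was not above the background. For calls in the higher direction the background was 14.1%, and in either direction 29.9%. The sizes leaned one way more than the calls did. Of the 44 log2 fold changes, 36 were below 0, against 50.2% of all tested genes, and their median was -0.20, against -0.00072 over all tested genes. In 11 tested members the LIP and NL libraries did not overlap, with LIP lower in each of them, against a background of 21.0% of genes lower and 19.9% higher without overlap. At an unadjusted p below 0.05 there were 9 members, against 39.7% of all genes. Fewer cells in cycle, less histone mRNA per cell and a change in its polyadenylated part cannot be told apart in these bulk polyA libraries. With an offset for transcript length, described below, the median was 0.022 and only Hist1h2bc and Hist1h2bg were called lower.

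**Figure D1:**
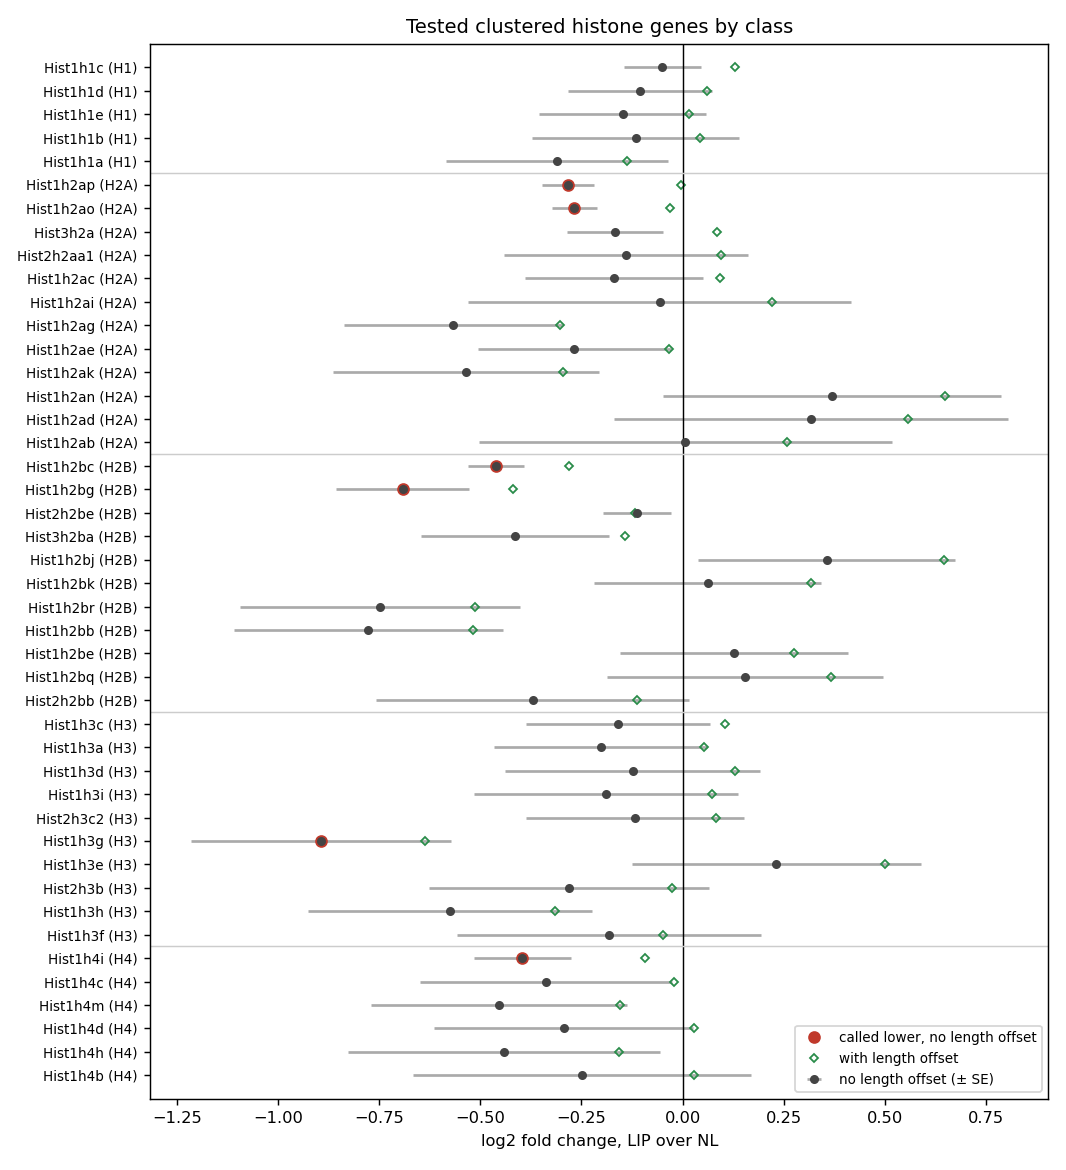
Log2 fold change, LIP over NL, of the 44 tested clustered histone genes, grouped by class and ordered within a class by their mean TPM. Dark points with bars give the estimate ± SE, red rims mark the 6 genes called lower, and open diamonds give the same genes after an offset for transcript length, where 23 of 44 lie above 0 and the point of Hist2h2be, the only plotted gene outside the shortest bin of genes, hardly moves.

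The H2A genes Hist1h2ao and Hist1h2ap supplied most of the signal. Both encode a core H2A protein and lie in the Hist1 cluster, at chr13:21810367-21810918 and chr13:21833024-21833475 of GRCm38. Per length, they averaged 1172 and 1473 TPM (the authors' level corrected for length and depth) over the 6 libraries. Together they held 85.1% to 85.8% of all clustered histone counts in LIP libraries and 85.0% to 86.4% in NL libraries. The next H2A gene by level, Hist3h2a, averaged 25.2 TPM.

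Hist1h2ao had 5576.28, 5604.97 and 5131.68 estimated counts in the LIP libraries, against 5788.69, 6056.52 and 6551.62 in the NL libraries. Hist1h2ap had 4947.84, 5461.09 and 5616.54 in the LIP libraries, against 5800.98, 5709.36 and 6729.92 in the NL libraries. Every LIP library was below every NL library for both genes, and the third NL library was the highest. The genes shared 92.7% and 92.2% of their stretches of 100 bases, the read length. Their single counts thus depend on how shared reads were divided, and their 2 calls are not independent. Hist1h2ao averaged 290 ± 20.3 CPM in LIP and 349 ± 22.1 CPM in NL cells, a log2 fold change of -0.27 ± 0.06 (SE; edgeR adjusted p = 0.00544). Hist1h2ap averaged 284 ± 10.02 CPM in LIP and 346 ± 32.5 CPM in NL cells, a log2 fold change of -0.28 ± 0.06 (SE; edgeR adjusted p = 0.0119). The call of Hist1h2ao was lost without the second LIP library (edgeR adjusted p = 0.0590), and that of Hist1h2ap was lost without the second (0.0991) or the third (0.0881). With the length offset described below, Hist1h2ao had -0.030 (edgeR adjusted p = 0.851) and Hist1h2ap -0.0029 (edgeR adjusted p = 0.988). On log2(TPM + 1) their limma adjusted p was 0.0699 and 0.0735. The remaining 10 tested H2A genes passed no test, with log2 fold changes between -0.57 for Hist1h2ag and 0.37 for Hist1h2an.

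Among the H2B genes, Hist1h2bc and Hist1h2bg fell. Hist1h2bc, at chr13:23684199-23692480, was the most abundant H2B gene per length, with 55.1 TPM over the 6 libraries. It had 340.58, 317.69 and 317.20 estimated counts in the LIP libraries, against 432.37, 406.96 and 419.17 in the NL libraries. The groups were well apart, since the highest LIP library was below the lowest NL library by more than the range within either group. It averaged 17.3 ± 1.31 CPM in LIP and 23.8 ± 0.749 CPM in NL cells, a log2 fold change of -0.46 ± 0.07 (SE; edgeR adjusted p = 3.46e-07). Hist1h2bg, at chr13:23571400-23571863, had 49.69, 43.77 and 43.80 counts in the LIP libraries, against 61.85, 72.82 and 74.49 in the NL libraries. Again no library of one group reached the other. Hist1h2bg averaged 2.45 ± 0.268 CPM in LIP and 3.96 ± 0.375 CPM in NL cells, a log2 fold change of -0.69 ± 0.16 (SE; edgeR adjusted p = 7.82e-04). Without any single library both genes were still called lower.

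The other 9 tested H2B genes did not pass, and 4 of them had positive estimates. Hist2h2be, which lies on chromosome 3 and shares no 100-base stretch with another gene, had 276, 311 and 249 counts in the LIP libraries, against 286, 309 and 252 in the NL libraries. Its groups overlapped, and its log2 fold change was -0.11 ± 0.08 (SE; edgeR adjusted p = 0.331). Hist1h2bb had the steepest estimate among the H2B genes, -0.78 ± 0.33 (SE; edgeR adjusted p = 0.0697), from 9.97 to 18.54 estimated counts a library. Without the third NL library Hist1h2bj was called higher (log2 fold change 1.04, edgeR adjusted p = 0.0313), whereas with all libraries it had 0.36 ± 0.32 and an adjusted p of 0.433.

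Of the H4 genes, Hist1h4i fell. It was the most abundant H4 gene, at 33.7 TPM, and lies at chr13:22040960-22041362. It had 107.33, 96.05 and 101.16 estimated counts in the LIP libraries, against 114.64, 125.15 and 134.88 in the NL libraries, with no overlap. It averaged 5.40 ± 0.462 CPM in LIP and 7.11 ± 0.568 CPM in NL cells, a log2 fold change of -0.40 ± 0.12 (SE; edgeR adjusted p = 0.00832). The call was lost without the third NL library (edgeR adjusted p = 0.0599), in DESeq2 (adjusted p = 0.0805), with an offset for transcript length described below (-0.093, edgeR adjusted p = 0.608) and with an offset for length and GC content (-0.13, edgeR adjusted p = 0.481). The next H4 gene, Hist1h4c, had 16.55, 9.52 and 16.19 counts in LIP and 19.63, 14.71 and 15.66 in NL libraries. Its groups overlapped, and its log2 fold change of -0.34 ± 0.31 (SE) did not pass (edgeR adjusted p = 0.447). All 6 tested H4 genes had negative estimates, between -0.45 and -0.25. With the length offset they lay between -0.16 and 0.029, and were no longer all negative.

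Of the H3 genes, Hist1h3g fell, from low counts. Hist1h3g, at chr13:23535418-23535909, had 11.15, 11.31 and 9.61 estimated counts in the LIP libraries, against 21.16, 16.93 and 18.25 in the NL libraries. The groups were apart, but each library held few reads of it. It averaged 0.569 ± 0.0432 CPM in LIP and 1.06 ± 0.120 CPM in NL cells, a log2 fold change of -0.89 ± 0.32 (SE; edgeR adjusted p = 0.0280), the steepest estimate among the 44. Its call was lost when any library but the second NL one was left out, with edgeR adjusted p between 0.0511 and 0.104 in those 5 fits. The most abundant H3 genes, Hist1h3c and Hist1h3a, averaged 7.01 and 5.03 TPM and had log2 fold changes of -0.16 ± 0.23 and -0.20 ± 0.26 (SE), neither of which passed (edgeR adjusted p = 0.645 and 0.606).

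No H1 gene passed. Hist1h1c, the most abundant linker histone gene here at 28.2 TPM, had 178.53, 196.83 and 205.73 estimated counts in the LIP libraries, against 205.68, 165.49 and 193.39 in the NL libraries. The groups overlapped, at 10.3 ± 0.434 CPM in LIP and 10.7 ± 1.21 CPM in NL cells, and the log2 fold change was -0.05 ± 0.09 (SE; edgeR adjusted p = 0.740). Hist1h1d followed with 6.88 TPM and a log2 fold change of -0.10 ± 0.18 (SE; edgeR adjusted p = 0.704). The 5 tested H1 genes had estimates between -0.31 and -0.05. A difference between H1 and the core histone classes was not tested.

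**Figure D2:**
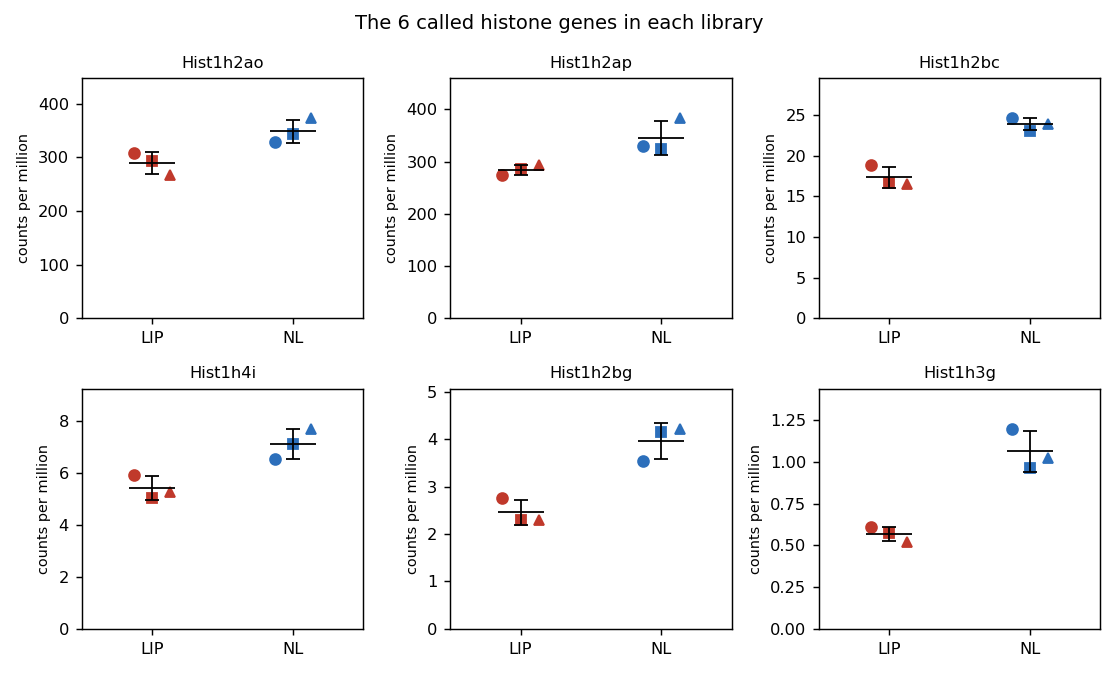
CPM of the 6 histone genes called lower, in each of the 3 LIP libraries (red, left) and 3 NL libraries (blue, right). Circles, squares and triangles are libraries 1, 2 and 3, and the black bar is the mean ± SD. In each panel all LIP points lie below all NL points.

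Summing the deposited counts within a class gave the same order of groups for the core histones. No length offset, described below, was applied to these sums. All 63 genes together held 683, 674 and 660 CPM in the LIP libraries, against 776, 783 and 875 CPM in the NL libraries, a ratio of means of 0.828. The third NL library was the highest, and the groups did not overlap. Without Hist1h2ao and Hist1h2ap the sum was 101, 95.7 and 98.1 CPM in LIP, against 117, 116 and 119 CPM in NL libraries, a ratio of 0.840, so the lower sum was not carried by these genes alone. The ratio of means was 0.828 for H2A, 0.810 for H2B, 0.841 for H3 and 0.769 for H4, each without overlap between the groups. The H3 groups were close, at 8.40 to 9.25 CPM in LIP and 9.33 to 11.55 CPM in NL libraries, and on the authors' TPM they overlapped, at 34.1 to 38.2 TPM in LIP and 36.5 to 43.5 TPM in NL libraries. For H1 it was 0.934, and the groups overlapped. Leaving out Hist1h2bc and Hist1h2bg brought the H2B ratio to 0.918, with overlap. Clustered histone genes held 0.0670% to 0.0691% of the counts of a LIP library and 0.0767% to 0.0861% of the counts of an NL library.

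**Figure D3:**
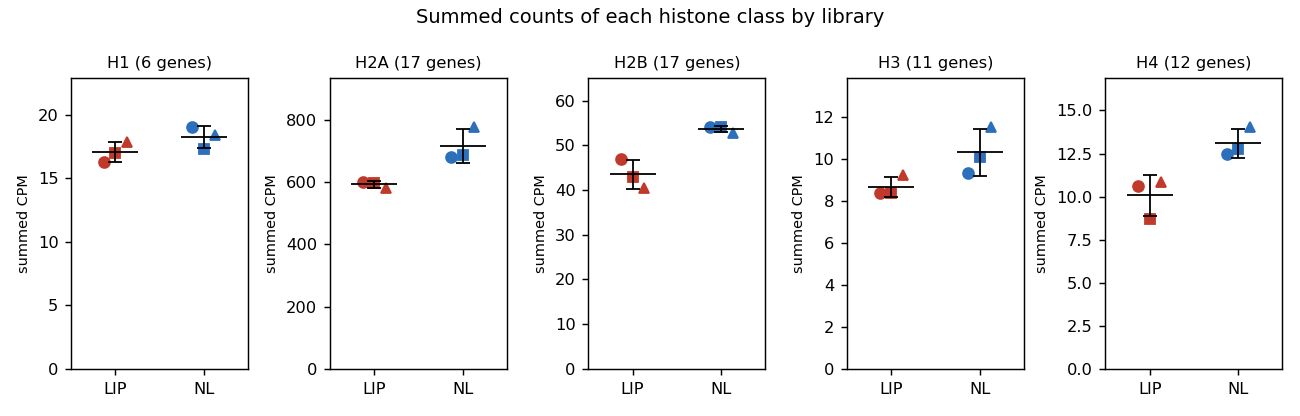
Summed CPM of each histone class in the LIP libraries (red, left) and NL libraries (blue, right), with circles, squares and triangles for libraries 1, 2 and 3 and black bars for the mean ± SD. The LIP points lie below the NL points in H2A, H2B, H3 (narrowly) and H4 and overlap with them in H1.

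The 19 members left out by the filter held few reads. They were Hist1h1t, Hist1h2af, Hist1h2ah, Hist1h2bf, Hist1h2bh, Hist1h2bl, Hist1h2bm, Hist1h2bn, Hist1h2bp, Hist1h3b, Hist1h4a, Hist1h4f, Hist1h4j, Hist1h4k, Hist2h2aa2, Hist2h2ab, Hist2h2ac, Hist2h4 and Hist4h4. Their estimated counts lay between 0 and 51.65 in a library, the highest being Hist2h2aa2. Summed, they held 74.0 to 102 counts in LIP libraries and 72.4 to 144 in NL libraries. Of the 44 tested members, 35 averaged below 10 TPM.

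Most of the deposited histone counts were not whole numbers. Of the 378 values of the 63 genes, 22.5% were whole, against 86.5% of the values of the whole table. Within each class except H2A the decimals cancelled. The summed counts of H1 genes were 295, 326 and 342 in the LIP libraries and 335, 305 and 324 in the NL libraries, and the sums of H2B, H3 and H4 were also within 0.03 of a whole number in all 6 libraries. For H2A no library gave a whole sum. Although 13 H2A genes shared 100-base stretches with H2afx, a variant histone gene outside the clusters, no library gave a whole sum with H2afx added either. Across all classes, 57 of the 63 genes shared at least 1 stretch of 100 bases, the read length, with another annotated gene, and in 23 over 50% of the stretches were shared. The 6 genes without a shared stretch all had whole counts in all libraries.

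Genes with and without whole counts are therefore given apart. Whole counts in all 6 libraries were found for 11 members, of which 6 were tested and none was called by edgeR, also none at an unadjusted p below 0.05 and none of those to which DESeq2 gave an adjusted p. They were Hist1h1a, Hist1h1b, Hist1h4d, Hist2h2bb, Hist2h2be and Hist3h2ba, and their log2 fold changes lay between -0.41 and -0.11 with a median of -0.30. Of the 52 members without whole counts, 38 were tested, 6 were called lower and the median was -0.19. Over all tested genes 15.6% of those with and 16.6% of those without whole counts were called lower. Hist3h2ba had 30, 19 and 27 counts in the LIP libraries, against 31, 32 and 32 in the NL libraries. Hist1h4d had 13, 14 and 13, against 18, 13 and 15.

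Near-identical copies showed how reads were divided. Hist2h2aa1 and Hist2h2aa2 shared 88.1% and 100% of their 100-base stretches. Hist2h2aa1 had 35.81, 83.02 and 81.01 estimated counts in the LIP libraries, against 78.01, 79.00 and 49.38 in the NL libraries, while Hist2h2aa2 had 25.19, 0 and 0, against 0, 0 and 51.65. The sums were steadier, at 61.0, 83.0 and 81.0 counts in LIP and 78.0, 79.0 and 101 in NL libraries. Likewise, Hist1h2bq had 7.21 and Hist1h2br had 41.04 counts in the first NL library, whereas in each of the other 5 libraries the pair differed by less than 1 count. Single values of such copies depend on how a read was divided between them.

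Each of the 3 copy pairs was therefore also fitted as a sum, an alternative chosen after seeing the data. Hist1h2ao and Hist1h2ap together had a log2 fold change of -0.27 ± 0.04 (SE; edgeR adjusted p = 1.89e-06). For Hist1h2bq with Hist1h2br it was -0.37 ± 0.22 (SE; edgeR adjusted p = 0.214), and for Hist2h2aa1 with Hist2h2aa2 -0.29 ± 0.14 (SE; edgeR adjusted p = 0.116). The opposite single estimates of Hist1h2bq (0.15) and Hist1h2br (-0.75) thus stood beside a joint estimate that did not pass.

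**Figure D4:**
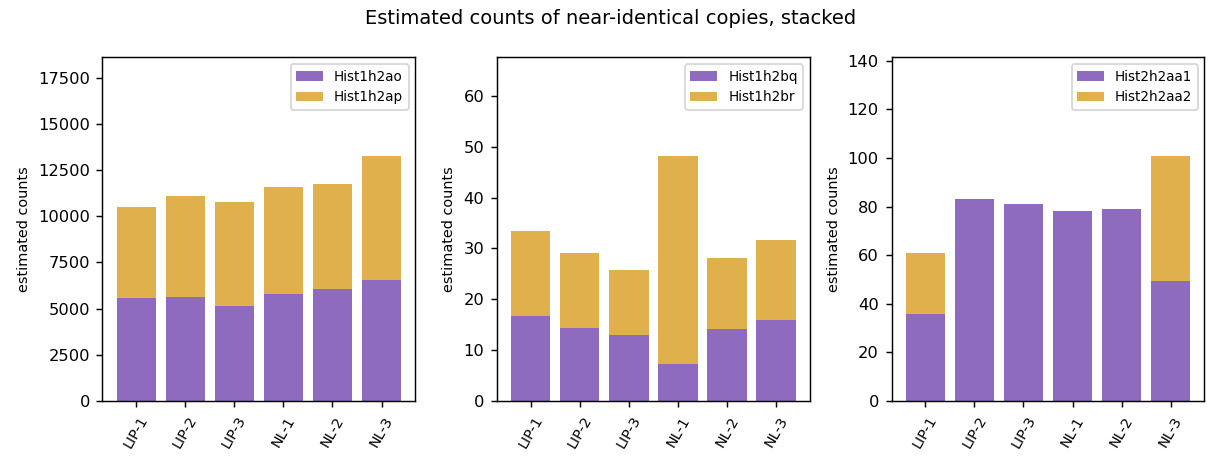
Estimated counts of the 3 pairs of near-identical histone genes in each library, stacked, with the 3 LIP libraries left of the 3 NL libraries. The heights vary less than the colours in the pairs Hist2h2aa1 and Hist2h2aa2, where Hist2h2aa2 is at 0 in 4 libraries, and Hist1h2bq and Hist1h2br, where the first NL library stands apart.

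Clustered histone mRNAs are short, and in these libraries the fold change of a gene moved with its effective length. Of the 44 tested histone genes, 43 lay in the shortest of 10 equal bins of tested genes, and Hist2h2be lay in bin 5. The other 1214 genes of the shortest bin had a median log2 fold change of -0.14, with 43.7% called lower and 4.53% higher. In the longest bin the median was 0.054, with 6.21% lower and 25.1% higher. The histone genes had a lower median than other short genes but a smaller share of calls, and most had few counts.

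An offset for the trend on length, fitted per library outside the histone genes, brought the members' median to 0.022, and 23 of 44 estimates were then above 0. Only Hist1h2bc (-0.28 ± 0.07, SE; edgeR adjusted p = 0.00154) and Hist1h2bg (-0.42 ± 0.16, SE; edgeR adjusted p = 0.0485) were still called lower, against 13.4% of all tested genes. The sum of Hist1h2ao and Hist1h2ap had -0.016 ± 0.073 (SE; edgeR adjusted p = 0.908). With an offset for length and GC content, chosen after seeing the data, Hist1h2bc had -0.26 (edgeR adjusted p = 0.00209) and Hist1h2bg -0.46 (edgeR adjusted p = 0.0317), the median was -0.015 and no other member was called. The background of lower calls was then 12.0%. Whether length itself, or RNA quality or selection that acts on short mRNAs, has a part in the lower histone levels was not tested.

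**Figure D5:**
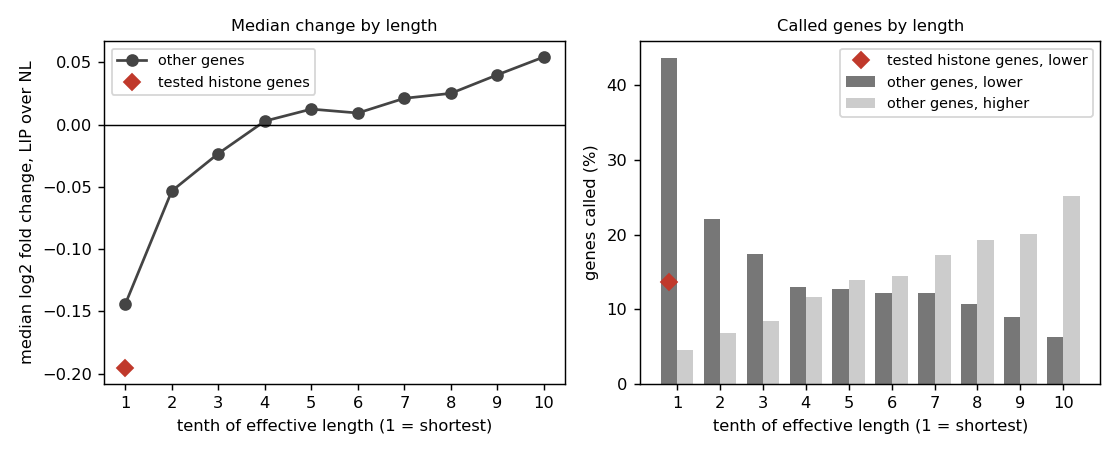
Left, median log2 fold change (LIP over NL) of the other tested genes in each of 10 equal bins of effective length (1 = shortest), with the median of the 44 tested histone genes as a red diamond at the shortest bin, where 43 of them lie. Right, the percentage of the other genes called lower (dark) and higher (light) in each bin, with the 13.6% of histone genes called lower as a red diamond, below the 43.7% of other genes in that bin.

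The test results were also counted by sequence feature. Of the 44 genes with an annotated stem-loop, 31 were tested, 5 were called lower and the median log2 fold change was -0.18. Of the 19 without it, 13 were tested, Hist1h2bc was called lower and the median was -0.28. Of the 12 genes with the octamer in the promoter window, 9 were tested, Hist1h2bg was called lower and the median was -0.17. These calls were 16.1%, 7.69% and 11.1% of the tested genes of each set, against 15.8% of all tested genes called lower. Of the 19 genes without a stem-loop, 9 had models of the coding sequence alone, which cannot show it. None of these differences was tested. There were 9 divergent pairs of an H2A and an H2B gene with overlapping promoter windows, and both genes were tested in 4. Hist1h2bc had no promoter window, so it could be counted neither among these pairs nor for the octamer. Hist1h2bg, at -0.69, faced Hist1h2ae, at -0.27 ± 0.24 (SE; edgeR adjusted p = 0.429). Hist1h2ao and Hist1h2ap, which fell, faced Hist1h2bq and Hist1h2br, and Hist1h2ag (-0.57, adjusted p = 0.109) faced Hist1h2bj (0.36).

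Genes that make and process histone mRNA were called in both directions. Of 16 listed and tested, 3 were lower and 1 was higher, against 29.9% of all tested genes called in either direction, with a median log2 fold change of -0.03. Scaled by total counts alone, 2 were lower and 5 higher, but the median over all tested genes was then 0.044, against -0.00072 in the main fit. Slbp, whose product binds the stem-loop, had 2363, 2407 and 2387 counts in the LIP libraries, against 2625, 2453 and 2442 in the NL libraries. After scaling it averaged 127 ± 3.16 CPM in LIP and 143 ± 5.98 CPM in NL cells, a log2 fold change of -0.17 ± 0.04 (SE; edgeR adjusted p = 3.42e-04). Hinfp, an activator of H4 genes, fell by 0.21 on the log2 scale and Lsm10, a U7 snRNP subunit, fell by 0.18 (edgeR adjusted p = 0.00482 and 0.0383), though Lsm10 lost its call in 12 of 24 alternatives. Pou2f1 rose by 0.18 (edgeR adjusted p = 0.00734). Npat, the coactivator of histone transcription, averaged 62.7 ± 3.18 CPM in LIP and 63.7 ± 1.06 CPM in NL cells and did not pass (edgeR adjusted p = 0.740). Nor did Mblac1, a nuclease linked to histone mRNA processing, at 0.28 (edgeR adjusted p = 0.0524; called in 8 of 24 alternatives), or Cstf2, a cleavage factor, at -0.08 (edgeR adjusted p = 0.0844).

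Among 11 variant histone genes, which lie outside the clusters and mostly give polyadenylated mRNA, 4 were lower and 2 higher, with a median of -0.03. Over all tested genes 15.8% were called lower and 14.1% higher. H3f3a, which encodes H3.3, averaged 1085 ± 46.0 CPM in LIP and 1323 ± 19.4 CPM in NL cells (log2 fold change -0.29 ± 0.03, SE; edgeR adjusted p = 1.37e-09). H2afz, which encodes H2A.Z, averaged 536 ± 16.1 CPM in LIP and 644 ± 9.63 CPM in NL cells (-0.26 ± 0.03, SE; edgeR adjusted p = 2.69e-09). Without a length offset these estimates lay close to those of Hist1h2ao and Hist1h2ap. With it, Hist1h2ao (-0.030) and Hist1h2ap (-0.0029) lost their calls. H3f3a and H2afz kept theirs in all 23 alternatives that tested them, the length offset included. The size of the offset follows a gene's effective length, which was not matched between these variant genes and Hist1h2ao and Hist1h2ap. H2afv and H2afj fell by 0.18 and 0.16 on the log2 scale (edgeR adjusted p = 1.59e-04 and 0.00138). The linker variant H1f0 rose by 0.20 (edgeR adjusted p = 2.05e-05), and H2afx rose by 0.09 (edgeR adjusted p = 0.0280).

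Histone chaperones were even, with 3 lower and 3 higher of 20 tested and a median of 0.0037. The shares over all tested genes were 15.8% lower and 14.1% higher. Asf1a (-0.28), Hat1 (-0.20) and Nap1l1 (-0.14) were lower, and the assembly factor subunit Chaf1a (0.17), the HIRA-complex gene Cabin1 (0.15) and the FACT subunit Supt16 (0.10) were higher. Of 33 genes of S-phase DNA synthesis, 8 were lower and 2 higher, with a median of -0.04. In either direction, 29.9% of all tested genes were called. Pcna, the sliding clamp of the replicative polymerases, averaged 457 ± 3.55 CPM in LIP and 543 ± 10.6 CPM in NL cells (log2 fold change -0.25 ± 0.03, SE; edgeR adjusted p = 6.77e-09). Ccne2 (-0.36), Gins2 (-0.26) and Rfc4 (-0.22) were also lower, and Pole, the catalytic subunit of a replicative polymerase, was higher (0.24). With the length offset 9 of the 33 were lower and 3 higher, against 13.4% and 13.3% of all tested genes. With total counts alone 7 were lower and 6 higher, and for the chaperones 3 were lower and 7 higher. Under that scaling 4057 genes of the whole table were called in either direction, and the median over all tested genes was 0.044.

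The last list held genes of poly(A) tails and histone mRNA decay, with 13 of 16 symbols found, the other 3 being older names of genes already in it. Of the 13, 3 were lower and 3 higher, with a median of 0.0082, against 15.8% lower and 14.1% higher over all tested genes. Papolg, a poly(A) polymerase, Lsm1, part of the decapping activator that also acts in histone mRNA decay, and Upf2 fell by 0.27, 0.35 and 0.17 on the log2 scale. Tent2, a non-canonical poly(A) polymerase, Upf1, the helicase of histone mRNA decay, and the poly(A)-binding gene Pabpn1 rose by 0.22, 0.12 and 0.11. Each of these 6 had an edgeR adjusted p between 5.55e-05 and 0.0127.

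Markers of other cell types moved with the groups. The background for the counts below was 14.1% of all tested genes called higher and 15.8% called lower. Of the neutrophil markers 8 of 9 tested were higher, with summed levels of 316 to 339 CPM in LIP and 222 to 239 CPM in NL libraries, while Ly6g was below the filter. All 7 monocyte markers were higher (1037 to 1071 CPM in LIP, 796 to 817 CPM in NL), as were 6 of 8 B-lineage markers (89.5 to 93.0 CPM in LIP, 71.6 to 73.4 CPM in NL) and 4 of 7 T and NK markers (159 to 175 CPM in LIP, 142 to 151 CPM in NL). Of 8 erythroid markers 4 were lower and 1 higher (511 to 553 CPM in LIP, 574 to 596 CPM in NL). Of 5 tested megakaryocyte markers 2 were higher, and of 6 mast cell and basophil markers 2 were lower and 1 higher. Of the 6 sort markers 1 was higher and 1 lower (2286 to 2322 CPM in LIP, 2248 to 2254 CPM in NL). Among them, Kit averaged 581 ± 9.52 CPM in LIP and 512 ± 3.73 CPM in NL cells. Ly6a, which encodes Sca-1, averaged 37.0 ± 2.40 CPM in LIP and 38.7 ± 0.803 CPM in NL cells. The part of these cell types in the histone values was not tested.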

How the data were processed

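The deposited table gave the authors' estimated counts (expected counts) and TPM per gene and library, per the file headers. Its FPKM values served with the deposited counts to derive effective lengths. The submitters' processing notes list STAR, HTSeq and GRCm38. For the program that estimated the counts, a name was not given in the sources used here. The authors' 6 columns of group means were not used. A test for whole counts was planned. The estimated counts were therefore rounded, filtered with filterByExpr, scaled by TMM and tested with edgeR 4.0.16 under R 4.3.3 (quasi-likelihood, robust, group as the only term), which was also tested on simulated data. Precision at this depth is the 3-count floor given above, which covers counting error only. Members and lists were chosen with earlier results of these data known. Named genes were all called members, the 2 tested members of each class with the highest mean TPM, all untested members, up to 6 genes of each related list by p, and Slbp, Npat and Pcna; 1 gene this rule picked is not reported here. Other members named were chosen after their values were seen. Alternatives used DESeq2 1.42.0, limma 3.58.1, other scalings, filters, offsets (lowess, span 0.3), TPM and left-out libraries. Shared sequence, stem-loops and GC came from GENCODE M21, and gene positions and promoters from RefSeq on GRCm38. Replicate numbers did not pair the libraries.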

Additional observations from a re-analysis of the deposited data

How the results depend on the processing

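The count of 6 members called lower was 2 with the length offset, 2 with the length and GC offset, and 2 with copy pairs summed and the length offset. All 6 lack whole counts, so a fit to genes with whole counts only left them out and could not test them. It called none of the 6 other members that it tested. Leaving out 1 library at a time gave 3 to 7, the 3 without the second LIP library. Leaving out the third NL library gave 1 member called higher, so that the range was 0 to 1. The members' median of -0.20 was -0.15 with total counts alone, 0.022 with the length offset, -0.015 with the length and GC offset, 0.00015 with copy pairs summed and the length offset, and -0.30 for whole counts only. On log2(TPM + 1) and log2(TPM + 0.1) it was -0.079 and -0.10, where the median of all genes was 0.11 and 0.12. Without 1 library it ranged from -0.27 to -0.20. The related lists held 16, 11, 20, 33 and 13 tested genes. Those called lower numbered 21, and 7 with either TPM scale and 19 to 23 without 1 library. With whole counts only, a fit that left out listed genes without them, 11 were lower. Those called higher numbered 11, and 23 with total counts alone, 7 at an adjusted p below 0.01, 46 and 47 on the TPM scales and 7 to 11 without 1 library. The cause of these shifts was not tested. Over all genes, 3760 were called by edgeR, 2376 by DESeq2 and 2493 at an adjusted p below 0.01. With total counts alone 4057 were called, and on the TPM scales 5199 and 5189, so the calls over all genes rose there too. In the main fit 15.8% of all tested genes were lower and 14.1% higher. Hist1h2bc and Hist1h2bg were called lower in all 21 alternatives that kept single genes and could test them. DESeq2 gave 16 members an adjusted p. The replicate block, whose numbers did not pair the libraries (correlations of 0.030, -0.016 and -0.11), called 5 members lower, without Hist1h2ao, and 3729 genes in all. For most members depth limits what could be seen: 35 of 44 averaged below 10 TPM.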
